A study of Mus musculus with 6 samples.

Results

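Interferon-stimulated genes are the genes that cells switch on when they sense an interferon. The set described here was a list of 38 such genes, chosen by name: every probe on the array that carried one of these gene names was taken, control spots excluded. All 38 had at least 1 probe, among 34832 gene names on the array. Of the 38, 35 were measured, meaning that all 3 arrays of 1 or both groups showed a probe well above background, among 17057 measured genes in all. The 3 that did not pass were Ifit1, Ifit2 and Oas3.

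Messenger RNA was measured in the whole liver of C57BL6/J mice on 1-colour Agilent arrays, with 1 array per mouse. One group of 3 mice had received CBZ by mouth at 250 mg/kg, and the other group of 3 mice had received DMSO, the vehicle. All livers were taken 2 hours after dosing. The comparison asks which liver transcripts differed shortly after CBZ, and the list was also compared between the vehicle mice themselves. The labels name no genotype other than the strain, give no age or sex, and do not spell out CBZ. An array was made from 1 liver, so a p-value here measures the spread between 3 mice of each group. The labels do not say whether the mice shared cages, litters or dosing days.

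Type I interferons (the interferon alphas and interferon beta) signal through a receptor on nearly all cells. The receptor's kinases activate a complex that contains STAT2 and IRF9 and binds the interferon-stimulated response element in the promoters of antiviral genes. Interferon gamma, made mainly by T and NK cells, acts largely through the gamma-activated site, and it drives IRF1, the chemokines Cxcl9 and Cxcl10, the GBP and IRG GTPases and antigen processing. In liver, hepatocytes, Kupffer cells (the resident macrophages) and endothelial cells all respond to interferons.

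Both kinds of signal act through short DNA motifs, so the promoters of the list were searched for them. Each promoter window, from RefSeq on the GRCm38.p6 build, ran from 250 bases before to 50 bases after the gene's annotated start, and 29 of the 38 genes had one. Usp18, Oas2, Dhx58, Zbp1, Mx1, Mx2, Parp14, Gbp6 and Iigp1 had no entry. The core of the response element was searched on both strands as GAAANNGAAA and the gamma-activated site as TTCNNNGAA. GAAANNGAAA was found in 15 of the 29 genes (51.7%) against 1079 of 27025 genes in all (3.99%), or 1131 of 32851 windows of the same length (3.44%). Its holders were Stat2, Ifit1, Ifit3, Isg15, Oas1a, Oas3, Ifih1, Ddx58, Rsad2, Bst2, Cxcl10, Gbp2, Gbp3, Igtp and Irgm1. TTCNNNGAA was found in 7 of the 29 (24.1%), namely Irf1, Ifit2, Oas1a, Bst2, Ifi35, Igtp and Psmb8, against 9.55% of all genes, or 8.3% of windows. A match describes letters only and does not show that a factor binds there.

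The promoters below belong to the 3 holders of GAAANNGAAA whose signal was spread most widely over the vehicle mice, with the match in capitals and the sequence ending at the base before the gene's start. They lie at chr5:92348890-92349139 on the minus strand, chr12:26456453-26456702 on the minus strand and chr3:142620413-142620662 on the plus strand. Counted from the gene's start, the match begins at -213 in Cxcl10, and on the opposite strand at -120 in Rsad2 and -59 in Gbp2.
Cxcl10: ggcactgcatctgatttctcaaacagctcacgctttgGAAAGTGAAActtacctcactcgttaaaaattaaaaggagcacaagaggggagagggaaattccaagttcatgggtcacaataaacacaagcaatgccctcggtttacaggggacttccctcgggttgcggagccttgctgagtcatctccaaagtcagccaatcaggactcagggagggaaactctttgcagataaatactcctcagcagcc
Rsad2: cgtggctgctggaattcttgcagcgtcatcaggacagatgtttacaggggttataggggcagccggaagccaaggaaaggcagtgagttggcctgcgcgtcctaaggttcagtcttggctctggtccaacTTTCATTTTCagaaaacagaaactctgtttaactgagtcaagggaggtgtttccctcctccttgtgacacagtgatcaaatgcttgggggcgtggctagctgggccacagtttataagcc
Gbp2: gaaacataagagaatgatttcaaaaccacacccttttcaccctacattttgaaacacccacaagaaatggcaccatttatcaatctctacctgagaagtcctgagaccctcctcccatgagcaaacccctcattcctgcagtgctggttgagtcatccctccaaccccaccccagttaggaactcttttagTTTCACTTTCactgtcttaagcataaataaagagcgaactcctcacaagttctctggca

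The next sequences hold TTCNNNGAA without GAAANNGAAA, again with the match in capitals. Irf1 (chr11:53769764-53770013, plus strand) is shown as the gene of a factor that interferon gamma induces, with the match from -90. Ifi35 had the widest spread over the vehicle mice among the measured holders of TTCNNNGAA alone, and 30 bases around its start are shown (chr11:101448409-101448438, plus strand).
Irf1: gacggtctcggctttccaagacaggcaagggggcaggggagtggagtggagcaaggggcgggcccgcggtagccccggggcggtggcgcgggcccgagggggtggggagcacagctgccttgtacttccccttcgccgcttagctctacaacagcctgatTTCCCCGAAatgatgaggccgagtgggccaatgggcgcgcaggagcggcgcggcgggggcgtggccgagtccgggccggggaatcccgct
Ifi35: agaagcagaaTTCACAGAAatgaaagtgga

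Isg15 held 3 overlapping copies of GAAANNGAAA from -78 to -57, and Igtp held both motifs, TTCNNNGAA from -45 and GAAANNGAAA from -34. In the expression data, the 13 measured holders of GAAANNGAAA had a median range over the DMSO mice of 0.56 on the log2 scale and a median log2 difference, CBZ minus DMSO, of 0.28. The 13 measured genes whose window lacked it had medians of 0.45 and 0.20. The counts went the other way. The mean was higher in CBZ for 10 of 13 holders and 12 of 13 of the others. DMSO mouse 1 was the highest vehicle mouse for 8 of 13 holders and 12 of 13 of the others. These medians and counts are descriptions with no test.

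No interferon-stimulated gene passed the test for a difference between CBZ and DMSO. The test was limma on log2 intensities scaled to each array's 75th percentile, with Benjamini-Hochberg adjustment over 22352 probes and a threshold of 0.05. By limma, 0 of 35 genes passed, against 9 of all 17057 genes (0.0528%). The smallest adjusted p of the list was 0.326 (limma), for Gbp3. At an unadjusted p under 0.05, 7 of the 35 were higher in CBZ (20%, against 5.01% of all genes) and 2 were lower (5.71%, against 3.96%). The 7 were Gbp3, Ifi44, Zbp1, Oas1a, Oasl1, Ddx58 and Xaf1, and the 2 were Irf1 and Stat2. Ifi44 passed the filter only through the CBZ arrays, and 6 remain without it. With arrays scaled to their medians, 0 were higher and 2 were lower (Irf1 and Cxcl10), against 241 higher and 452 lower of all 17057 genes. Without a filter, 2 of 38 were higher and 1 lower, against 1061 and 542 of 34821 genes. Leaving out DMSO mouse 1 gave 10 higher and 2 lower of 35, against 851 and 571 of all genes. Leaving out DMSO mouse 2 gave 2 and 1, against 555 and 373. Leaving out DMSO mouse 3 gave 2 and 2, against 1066 and 972. The row of the slide as a covariate leaves only CBZ mouse 1 to compare with the DMSO mice. There the list's median log2 difference was 0.11, against -0.012 over all genes.

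Most genes of the list had a slightly higher mean in CBZ. Of the 35 genes, 26 had the higher mean in CBZ (74.3%, against 49.1% of all genes), or 20 of 35 with arrays scaled to their medians, a scaling that moved the median of all genes to -0.10. The median log2 difference of the list was 0.20, with quartiles of 0.03 and 0.31, and -0.0044 over all genes, with quartiles of -0.12 and 0.13. The lowest value was -0.68 for Irf1, and the highest among genes well above background on all 6 arrays was 0.53 for Oasl1. All 3 CBZ mice were above all 3 DMSO mice for 6 of the 35 genes (17.1%, against 6.27% of all genes), namely Oas1a, Ifih1, Ddx58, Zbp1, Gbp3 and Psmb10. All 3 were below for 3 (8.57%, against 6.65%), namely Irf1, Stat2 and Parp14. With arrays scaled to their medians, neither kind of separation was seen for any of the 35 (0 genes above and 0 below). The share of all genes was not taken there. That scaling shifted whole arrays: the median deviation of all genes from the mean of the 6 mice ran from -0.26 (CBZ mouse 1) to 0.31 (DMSO mouse 1).

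**Figure D1:**
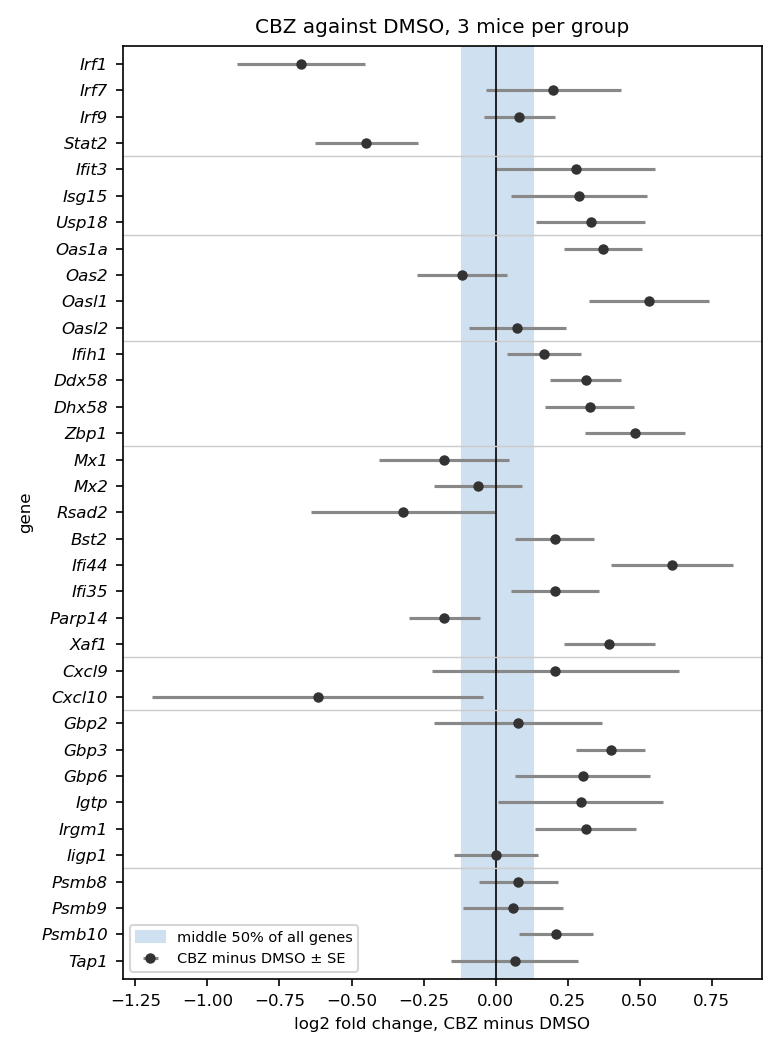
Log2 difference, CBZ minus DMSO, of each of the 35 measured interferon-stimulated genes (points) with its standard error from limma (bars), 3 mice per group, grouped by role. The shaded band is the middle 50% of all genes, -0.12 to 0.13. Most points lie right of the band's centre, Irf1 and Cxcl10 lie farthest left at -0.68 and -0.62, and the bar of Cxcl10 is the widest at 0.58.

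The list's spread over the vehicle mice was wider than that of all genes with all 3 mice, but not without DMSO mouse 1. The range over the 3 DMSO mice had a median of 0.45 on the log2 scale (1.36-fold), against 0.33 (1.25-fold) over all genes, and 0.38 (1.30-fold) over the 3 CBZ mice. For 25 of the 35 genes (71.4%) it was wider than the difference between the group means, which held for a larger share, 82.2%, of all genes. Without DMSO mouse 1 the median range was 0.13, under the 0.20 of all genes; without DMSO mouse 3 it was 0.21 against 0.14, and with quantile normalisation it was 0.30 against 0.28. It was wider than the range over the 3 CBZ mice for 21 of 35 (60%, against 50.1% of all genes). Of the list's genes, 10 ranked at or above the 90th percentile of all genes for this range, and 8 ranked below the 25th.

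The order of the vehicle mice was shared across much of the list. DMSO mouse 1 was the highest of the 3 for 26 of 35 genes (74.3%, against 38.7% of all genes), and DMSO mouse 3 was the lowest for 26 of 35 (74.3%, against 45% of all genes). Both held for 21 genes (60%, against 27.1% of all genes). Across all 6 mice, DMSO mouse 3 was the lowest for 22 of 35 (62.9%, against 21.5%). Quantile normalisation gave 23 genes with DMSO mouse 1 highest (29.5% of all genes) and 17 with DMSO mouse 3 lowest (35% of all genes). Scaling to the array medians gave 35 and 33, but there 76% and 72.3% of all genes followed the same order.

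Each mouse's median over the 35 genes, as a log2 deviation from the mean of the 6 mice, was 0.14, -0.09 and -0.27 in DMSO mice 1 to 3 and 0.02, 0.13 and 0.14 in CBZ mice 1 to 3. All 3 CBZ mice lay above DMSO mice 2 and 3 and below DMSO mouse 1, though CBZ mouse 3 only just. Over all genes the same medians stayed between -0.02 and 0.04. With quantile normalisation all 3 CBZ mice (0.066, 0.053 and 0.19) lay above DMSO mouse 1 (0.050), so its place depended on the processing. Without DMSO mouse 1, all CBZ mice were above both other DMSO mice for 18 of the 35 genes (51.4%, against 12.6% of all genes), 30 had the higher mean in CBZ and the median log2 difference was 0.29, and again 0 genes passed (limma). That mouse was the highest vehicle mouse for 26 of 35 genes, against 38.7% of all genes. Leaving it out could therefore raise these values more for the list than for all genes. The 51.4% and 12.6% are thus no separate test of CBZ. The same count of genes with every CBZ mouse above was 7 without DMSO mouse 2 and 6 without DMSO mouse 3. The share of all genes was not taken for these 7 and 6, so they are not set against the 18. Without DMSO mouse 3, 21 of 35 had the higher mean in CBZ and the median log2 difference was 0.07.

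**Figure D2:**
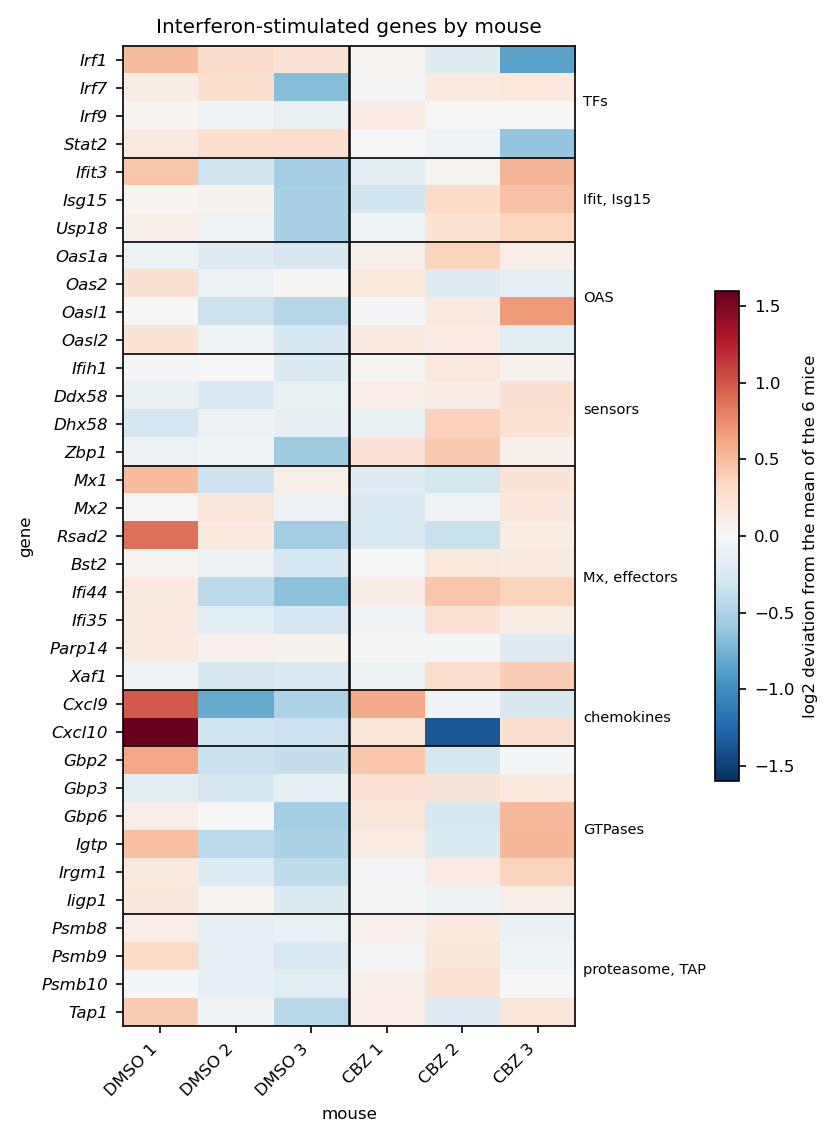
Log2 deviation of each of the 35 measured genes from its mean over the 6 mice (colour scale, log2 units), with 1 column per mouse and genes grouped by role. DMSO mouse 3 is the lowest of the 6 mice for 22 genes; the darkest cells are Cxcl10 in DMSO mouse 1 and CBZ mouse 2.

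Among the transcription factors of the pathway, Irf1 and Stat2 were at lower intensity in every CBZ mouse than in every DMSO mouse, while Irf7 and Irf9 overlapped between the groups. Irf1, the interferon gamma-induced activator whose promoter is shown above, had scaled intensities of 2038, 1763 and 1680 in the DMSO mice, against 1473, 1264 and 796 after CBZ (probe at chr11:53590746-53590805, mm9). CBZ mouse 3 was the lowest and the groups did not overlap. Between the group means, the log2 difference was -0.68 ± 0.22 (SE), with an adjusted p of 0.371 by limma. With the row of the slide as a covariate it was -0.31, and without CBZ mouse 3 it was -0.42.

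Stat2, a signal transducer of the type I interferon receptor, was at 2031, 2218 and 2209 under DMSO and 1851, 1760 and 1200 under CBZ (probe at chr10:127729834-127729893). CBZ mouse 3 again stood lowest. Its log2 difference was -0.45 ± 0.18 (SE; adjusted p = 0.475, limma), or -0.25 without CBZ mouse 3 and -0.22 with the row of the slide as a covariate.

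Irf9, the DNA-binding partner of STAT2, was nearly level, at 1880, 1785 and 1684 in the DMSO mice, against 2004, 1832 and 1827 after CBZ (probe at chr14:56228806-56228865). The log2 difference of Irf9 was 0.08 ± 0.12 (SE), and it took the opposite sign, -0.017, with arrays scaled to their medians. Irf7, which amplifies the production of interferon alphas, was at 1004, 1109 and 576 under DMSO and 909, 1031 and 1037 under CBZ (probe at chr7:148450664-148451014). Only DMSO mouse 3 was apart, 1.93-fold under DMSO mouse 2. Without that mouse the log2 difference of Irf7 went from 0.20 ± 0.24 (SE) to -0.091.

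Of the IFIT family, which binds viral RNA, only Ifit3 was measured. Its scaled intensity was 629, 369 and 315 in the DMSO mice, against 409, 476 and 670 after CBZ (probe at chr19:34663105-34663164), so that DMSO mouse 1 and CBZ mouse 3 were high and the groups overlapped. The log2 difference was 0.28 ± 0.28 (SE), and -0.034 with the row of the slide as a covariate. Ifit1 was well above background on 2 of 3 arrays in each group, between 33.5 and 48.6 in the DMSO mice and between 41.5 and 62.5 in the CBZ mice, and Ifit2 on none of the 6.

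Isg15 encodes the ubiquitin-like protein that is attached to other proteins in the interferon response, and Usp18 the protease that removes it. Isg15 was at 3552, 3628 and 2436 under DMSO and 2785, 4271 and 4810 under CBZ. CBZ mice 2 and 3 were the highest, and CBZ mouse 1 was below DMSO mice 1 and 2. Its log2 difference was 0.29 ± 0.24 (SE), and 0.44 ± 0.22 from its second probe. With the row of the slide as a covariate it was -0.18. That covariate leaves only CBZ mouse 1 to compare with the DMSO mice, since CBZ mice 2 and 3 were alone in the second row. Usp18 differed by 0.33 ± 0.19 (SE), with DMSO mouse 3 lowest and CBZ mouse 3 highest of the 6.

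The OAS enzymes make the short oligoadenylates that activate RNase L, and the OAS-like proteins are their relatives. Oas1a was at 1171, 1067 and 1026 in the DMSO mice, against 1317, 1585 and 1331 after CBZ (probe at chr5:121346735-121346794). Every CBZ mouse was above every DMSO mouse. That made a log2 difference of 0.37 ± 0.14 (SE; adjusted p = 0.427, limma). A second probe, at 152, 178 and 157 against 219, 263 and 201, also showed no overlap and gave 0.48 ± 0.15 (SE; adjusted p = 0.332, limma).

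Oasl1, an OAS-like protein that restrains Irf7 translation, was at 1070, 849 and 785 under DMSO and 1055, 1182 and 1726 under CBZ (probe at chr5:115387861-115387920). CBZ mouse 3 was highest, and CBZ mouse 1 was just under DMSO mouse 1. Its log2 difference was 0.53 ± 0.21 (SE; adjusted p = 0.465, limma), or 0.32 without CBZ mouse 3 and 0.24 with the row of the slide as a covariate. Oas2 differed by -0.12 ± 0.16 (SE), or 0.11 with that covariate, and Oasl2 by 0.07 ± 0.17 (SE), or -0.025 with arrays scaled to their medians. Oas3 was well above background on 1 DMSO and 2 CBZ arrays.

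None of the 4 sensors of foreign nucleic acid passed the test (0 of 4, limma). All 4 had the higher mean in CBZ in every setting tried. For Ifih1, Ddx58 and Zbp1 every CBZ mouse was above every DMSO mouse, as was so for 6.27% of all genes. With arrays scaled to their medians the groups overlapped for these genes, as they did for all 35 genes of the list. The share of all genes was not taken there. Zbp1, which binds Z-form nucleic acid and can trigger necroptosis, was at 628, 639 and 452 in the DMSO mice, against 781, 897 and 709 after CBZ (probe at chr2:173039307-173039366). Its log2 difference was 0.48 ± 0.17 (SE; adjusted p = 0.421, limma), and 0.71 ± 0.35 (SE) from a second probe. On that second probe the groups overlapped, with CBZ mouse 1 below DMSO mouse 1. There CBZ mouse 2 stood highest, at 244, against 124 in CBZ mouse 3 and 111 in DMSO mouse 1. Without DMSO mouse 3 the difference from the first probe was 0.32.

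Ddx58 encodes RIG-I, the receptor for viral RNA with a free triphosphate end. It was at 1043, 954 and 1044 under DMSO and 1214, 1226 and 1340 under CBZ, a log2 difference of 0.31 ± 0.12 (SE; adjusted p = 0.469, limma). The related helicases Ifih1 (MDA5) and Dhx58 (LGP2) differed by 0.17 ± 0.13 and 0.33 ± 0.15 (SE). DMSO mouse 1 was not the highest vehicle mouse for any of these sensors (0 of 4), against 26 of 35 over the list.

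Antiviral effectors had means on both sides, with 4 of 8 higher and 4 of 8 lower in CBZ. Ifi44, whose product is a cytoplasmic protein induced by type I interferon, was at 59.5, 40.0 and 33.8 in the DMSO mice, against 57.8, 72.7 and 68.3 after CBZ (probe at chr3:151394035-151394094). It was well above background on all 3 CBZ arrays and on 1 DMSO array, so its level in 2 of the DMSO mice is only a bound. DMSO mouse 1 lay inside the CBZ range. The log2 difference was 0.61 ± 0.21 (SE; adjusted p = 0.394, limma), and 0.25 after normexp background correction.

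Rsad2 encodes viperin, a radical SAM enzyme that makes a chain-terminating nucleotide. Its intensities were 535, 325 and 199 under DMSO and 247, 227 and 316 under CBZ (probe at chr12:27127859-27127918). The CBZ mice all lay inside the 2.69-fold range of the vehicle mice, in which DMSO mouse 1 was highest and DMSO mouse 3 lowest. The log2 difference of -0.32 ± 0.32 (SE) became 0.038 without DMSO mouse 1 and -0.68 without DMSO mouse 3.

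Bst2 (tetherin, which holds budding virions at the cell surface) differed by 0.20 ± 0.14, Ifi35 by 0.20 ± 0.15 and Xaf1, a pro-apoptotic protein that binds XIAP, by 0.39 ± 0.16 (SE). The dynamin-like GTPases Mx1 and Mx2 differed by -0.18 ± 0.22 and -0.06 ± 0.15 (SE), and both signs turned when 1 mouse was left out. Parp14, an ADP-ribosyltransferase, had the narrowest range over the vehicle mice of the whole list (1.06-fold) and differed by -0.18 ± 0.12 (SE), with all CBZ mice below all DMSO mice.

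The chemokines Cxcl9 and Cxcl10, which draw CXCR3-bearing T and NK cells, varied most between the vehicle mice. Cxcl10 was at 362, 97.6 and 96.0 in the DMSO mice, against 138, 46.9 and 145 after CBZ (probe at chr5:92775781-92775840), and 2 of the 3 CBZ arrays were well above background. DMSO mouse 1 was the highest and CBZ mouse 2 the lowest of the 6. Its mean log2 difference was -0.62 ± 0.58 (SE; adjusted p = 0.895, limma). It became 0.016 without DMSO mouse 1, -0.09 without CBZ mouse 2, -0.94 without DMSO mouse 3 and -0.13 with the row of the slide as a covariate.

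Cxcl9 was at 1074, 312 and 388 under DMSO and 826, 530 and 457 under CBZ (probe at chr5:92752191-92752250). Unlike for Cxcl10, the CBZ mice all lay inside the range of the vehicle mice, which spanned 3.44-fold. The log2 difference was 0.21 ± 0.43 (SE), 0.75 without DMSO mouse 1 and -0.14 without DMSO mouse 2. Its second probe gave the same order of the 6 mice at the top, with 398 in DMSO mouse 1 and 345 in CBZ mouse 1. Both chemokines ranked above the 99th percentile of all genes for the range over the vehicle mice.

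The GBP and IRG GTPases, which interferon gamma induces strongly and which attack the vacuoles of intracellular pathogens, included 1 gene with little spread within the groups and 5 of 6 with DMSO mouse 1 as the highest vehicle mouse. Gbp3 had the smallest p of the list. It was at 287, 267 and 289 in the DMSO mice, against 380, 373 and 359 after CBZ (probe at chr3:142236032-142236091). The groups did not overlap, and each spanned at most 1.08-fold. Its mean log2 difference was 0.40 ± 0.12 (SE), with an adjusted p of 0.326 by limma, and it stayed between 0.30 and 0.43 over all settings tried, with adjusted p between 0.216 and 1.00.

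Gbp2 was at 379, 192 and 190 under DMSO and 335, 202 and 241 under CBZ (probe at chr3:142300719-142300778). DMSO mouse 1 and CBZ mouse 1 were the high mice. The log2 difference was 0.08 ± 0.29 (SE), and it was -0.021 with arrays scaled to their medians. Igtp (Irgm3), whose probe at chr11:58020927-58020986 was printed 10 times on each array, was at 4181, 2237 and 2102 in the DMSO mice, against 3274, 2565 and 4328 after CBZ. Its log2 difference was 0.30 ± 0.29 (SE).

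The repeated spots of Igtp had a coefficient of variation between 2.03% and 5.94% within an array, and a range over the vehicle mice of 1.99-fold. Tap1, also spotted 10 times, had one between 5.11% and 9.12% and a range of 1.81-fold. This variation covers spots of 1 array only, not extraction, labelling or hybridisation. Gbp6 and Irgm1 differed by 0.30 ± 0.23 and 0.31 ± 0.18 (SE), and Iigp1 by -0.00045 ± 0.15 (SE). Many GBP, IRG and OAS genes have close relatives, and whether a probe also bound a relative's transcript was not tested.

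**Figure D3:**
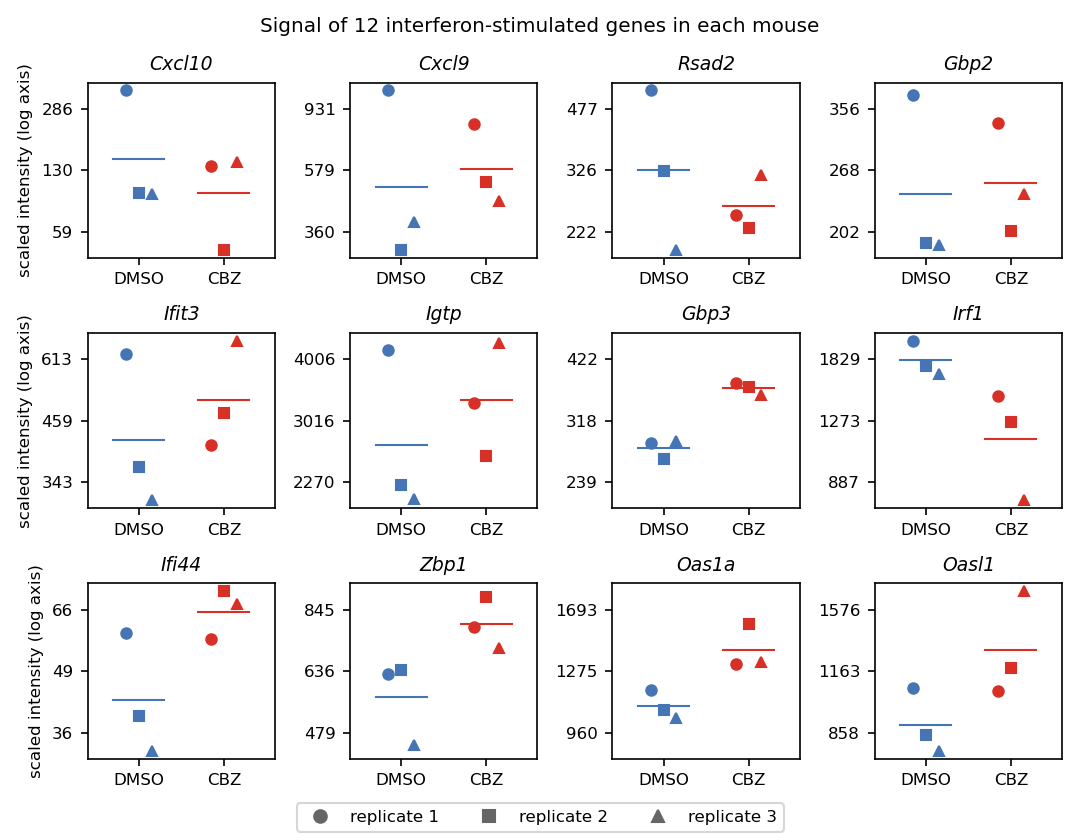
Scaled intensity (log axis, 1 panel per gene) of the 12 interferon-stimulated genes with the widest ranges over the DMSO mice or the smallest p, in each DMSO mouse (blue) and CBZ mouse (red); the horizontal line is the group's mean on the log scale and the shape gives the replicate number. In Cxcl10, Cxcl9, Rsad2 and Gbp2 DMSO mouse 1 is the highest mouse, while Gbp3, Zbp1 and Oas1a have every CBZ mouse above every DMSO mouse and Irf1 has every CBZ mouse below.

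Immunoproteasome subunits Psmb8, Psmb9 and Psmb10 cut peptides for display on MHC class I, and Tap1 is a subunit of the transporter that carries them into the endoplasmic reticulum. All 4 had the higher mean in CBZ, or 1 of 4 with arrays scaled to their medians, and DMSO mouse 1 was the highest vehicle mouse for all 4. Psmb10 was at 8835, 8155 and 7969 under DMSO and 9464, 10540 and 8912 under CBZ, with no overlap and a log2 difference of 0.21 ± 0.13 (SE; adjusted p = 0.743, limma). Psmb8, Psmb9 and Tap1 differed by 0.08 ± 0.14, 0.06 ± 0.17 and 0.07 ± 0.22 (SE), and each took the opposite sign, between -0.039 and -0.021, with arrays scaled to their medians.

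Of the 35 genes, 6 had a second probe that passed the filter: Cxcl9, Iigp1, Irgm1, Isg15, Oas1a and Zbp1. Both probes had the same sign of difference for 6 of 6, and the same highest vehicle mouse for 4 of 6.

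Upstream of these genes, the interferons themselves were scarcely detected. Of 23 interferon ligands, 15 had a probe and 3 were measured (Ifng, Ifna12 and Il28b), while 8, among them Ifnb1, were above background on no array. Ifng was at 56.3, 52.2 and 64.6 in the DMSO mice, against 77.1, 45.2 and 80.2 after CBZ, an overlap with a log2 difference of 0.19 ± 0.22 (SE). Among receptors and signalling genes, 17 of 21 were measured, of which 6 were higher and 11 lower in CBZ (3 and 14 with arrays scaled to their medians), and 0 passed (limma). Socs3, a feedback inhibitor of cytokine receptors, was at 638, 582 and 560 under DMSO and 487, 464 and 317 under CBZ, with no overlap, a log2 difference of -0.51 ± 0.18 (SE) and an adjusted p of 0.405 (limma). CBZ mouse 3 was lowest for Socs3, as it was for Irf1 and Stat2.

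Of 16 genes of nucleic acid sensing that are not on the list, 12 were measured, with 6 higher and 6 lower in CBZ (3 and 9 with median scaling) and 0 past the test (limma). Ticam1, the adaptor protein of the Toll-like receptor for double-stranded RNA, was at 513, 427 and 498 in the DMSO mice, against 614, 689 and 637 after CBZ, with a log2 difference of 0.44 ± 0.13 (SE; adjusted p = 0.334, limma). Of 63 other interferon-inducible genes, 43 were measured, with 30 higher and 13 lower in CBZ (23 and 20 with median scaling) and 0 past the test (limma). The list's median deviation was low in DMSO mice 2 and 3, at -0.13 and -0.15, and DMSO mouse 1 was the highest vehicle mouse for 31 of the 43. Tgtp2, another IRG GTPase, was at 2382, 884 and 1078 under DMSO and 2112, 1443 and 1531 under CBZ. Cmpk2, a mitochondrial nucleotide kinase, was at 154, 121 and 104 under DMSO and 71.0, 69.7 and 112 under CBZ, with a log2 difference of -0.60 ± 0.22 (SE; adjusted p = 0.428, limma).

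Antigen presentation genes were also highest in the same vehicle mouse. Of 15, 14 were measured, with 11 higher and 3 lower in CBZ (5 and 9 with median scaling, 7 and 7 with normexp) and 0 past the test (limma), and DMSO mouse 1 was the highest vehicle mouse for 13 of 14. Nlrc5, the transactivator of MHC class I genes, was at 317, 239 and 313 in the DMSO mice, against 379, 438 and 391 after CBZ, with a log2 difference of 0.48 ± 0.15 (SE; adjusted p = 0.353, limma). H2-Ab1, an MHC class II chain of antigen-presenting cells, was at 3722, 1698 and 2511 against 4634, 3075 and 3495.

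Markers of Kupffer cells and macrophages took the same order over the vehicle mice as the interferon-stimulated genes, but not over the CBZ mice. In CBZ mice 1 to 3 the median deviation was 0.20, 0.04 and -0.04 for the markers. For the interferon-stimulated genes it was 0.02, 0.13 and 0.14. Of 14 such markers, 12 were measured, with DMSO mouse 1 highest of the vehicle mice for 12 of 12 and DMSO mouse 3 lowest for 11 of 12. Their summed scaled intensity was 57340, 30020 and 26130 under DMSO and 41580, 36150 and 34390 under CBZ. Marco, a scavenger receptor of macrophages, was at 7829, 1405 and 1204 in the DMSO mice and between 1798 and 2539 in the CBZ mice, and Clec4f, a lectin of Kupffer cells, at 8613, 5949 and 5113 against 7800, 7456 and 6765. Their part in the order of the interferon-stimulated genes was not tested. In whole liver, fewer cells of a type and less RNA per cell cannot be told apart.

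Hepatocyte markers were measured in full (8 of 8), with a median range over the vehicle mice of 0.16 on the log2 scale and DMSO mouse 1 highest for 3 of 8. Of the neutrophil list, 6 of 9 were measured, with Ngp and Mpo above background on no array. Csf3r made 94.2% of its summed intensity, and the other 5 summed to 991, 1182 and 602 in the DMSO mice and to between 840 and 924 in the CBZ mice. Its S100a9 was at 384, 555 and 53.5 in the DMSO mice and between 292 and 335 in the CBZ mice, lowest in DMSO mouse 3. T and NK cell markers, the cells that make interferon gamma, were measured for 7 of 14, with Cd3g, Cd2, Cd8a, Ncr1 and Klrb1c above background on no array. Cd4 made 54.3% of their sum, and without it the other 6 summed to between 1285 and 1438 in the DMSO mice and between 1422 and 1546 in the CBZ mice, which overlap. For the sinusoidal endothelial list, 8 of 8 were measured, with sums of 18630, 15870 and 12090 in the DMSO mice, against 14870, 17710 and 13390 after CBZ. Of the other cell lists, 4 of 7 B cell, 4 of 5 plasmacytoid dendritic cell, 4 of 6 dendritic cell, 9 of 10 stellate cell and 3 of 5 cholangiocyte markers were measured. No marker of any cell list passed the test (limma, 0 in each). The median deviation also had the order of DMSO mice 1, 2 and 3 in the endothelial list (0.20, -0.02 and -0.24). So it did in the B cell list (0.10, -0.0035 and -0.22) and the neutrophil list (0.20, 0.13 and -0.33). Of the 6 neutrophil genes, DMSO mouse 1 was highest for 2, and Csf3r and Elane were highest in DMSO mouse 3. All genes also had this order (0.04, 0.02 and -0.02). The hepatocyte, T and NK cell, plasmacytoid dendritic cell and cholangiocyte lists lacked it. The dendritic cell list had the reverse order (-0.19, -0.10 and 0.12), and so did the stellate cell list (-0.16, -0.13 and 0.0062). The part of these cells in the results was not tested.

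**Figure D4:**
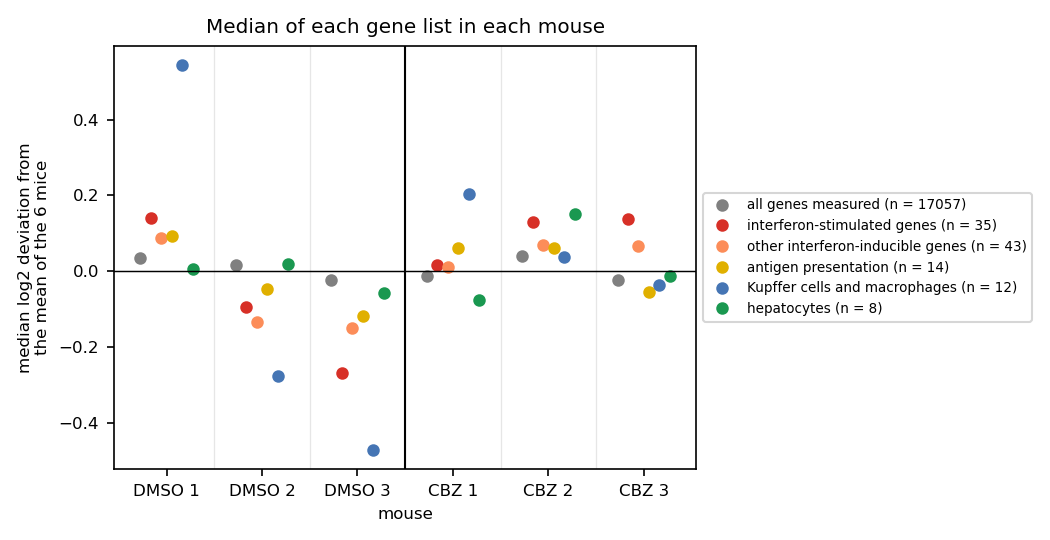
Median log2 deviation from the mean of the 6 mice (vertical axis, log2 units) of each gene list in each mouse (horizontal axis); a point is the median over the list's measured genes. The interferon-stimulated genes lie at 0.14, -0.09 and -0.27 in DMSO mice 1 to 3, and at 0.02, 0.13 and 0.14 in CBZ mice 1 to 3. The Kupffer cell and macrophage markers lie at 0.54, -0.28 and -0.47, and at 0.20, 0.04 and -0.04. All genes stay between -0.02 and 0.04.

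Array by array, between 42.6% and 45.8% of spots were well above background, no spot was saturated, and the 75th percentile of intensity lay between 158 and 191. The median intensity varied more, at 31.0, 35.0 and 40.3 under DMSO and 45.5, 27.5 and 44.2 under CBZ, so that scaling to the median and to the 75th percentile differ. With 6 arrays, precision is limited by their number. All 6 arrays lay on 1 slide, with the 3 DMSO mice and CBZ mouse 1 in the first row and CBZ mice 2 and 3 in the second. Within the first row, where only CBZ mouse 1 stands against the 3 DMSO mice, the median log2 difference of the list was 0.11 and 25 of 35 genes were higher in CBZ, against 48% of all genes.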

How the data were processed

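Liver RNA of 6 mice was measured, 3 given CBZ and 3 given DMSO; groups came from the labels. Per the file headers, the authors extracted each scan with Agilent Feature Extraction 10.7.3.1 (protocol GE1_107_Sep09), and the deposited intensity of a spot is background-subtracted but not normalized between arrays. The authors' deposited table, on a linear scale, served as an alternative: its values match the ratio of a spot's intensity to its array's median, so that each column has a median of 1. Its log2 was taken here. Intensities were averaged over a probe's spots on the log2 scale, less the array's 75th percentile; printed intensities are scaled back to a common 75th percentile. Probe positions on mm9 come from the array annotation in the files. Probes well above background on all 3 arrays of a group were kept (22352 of 55681), and a gene is its brightest probe. Groups were compared by limma 3.58.1 under R 4.3.3 (functions lmFit, then eBayes; two-sided; Benjamini-Hochberg over the probes kept, threshold 0.05). The procedure was tried on simulated data, only with differences larger than any of the list. That check does not show whether differences as small as those of the list would be found.

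Every gene is named; values per mouse are given for the 6 smallest p, the 6 widest ranges over the DMSO mice and the transcription factors, with a few others chosen after their values were seen (Isg15, Ddx58, Psmb10). From each other list at most 3 genes by p and 2 by range were named. The genes and lists were chosen with earlier results of these data known. No group could be tested for an outlying mouse, since groups had 3 mice. Alternatives were normexp background correction (offset 50), quantile and median scaling, other filters, a variance trend, the slide row or replicate number as a covariate, the mean of a gene's probes, and each mouse left out.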

Additional observations from a re-analysis of the deposited data

How the results depend on the processing

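In every setting tried, 0 interferon-stimulated genes passed the limma test. Over all genes, limma called 8 higher and 1 lower; the counts were 59 and 44 with normexp, 3 and 1 with quantile normalisation, 44 and 45 with median scaling or the authors' table, 0 and 0 without a filter (1061 and 542 at an unadjusted p under 0.05), 23 and 7 with probes above background on all 6 arrays, 63 and 71 with a variance trend, and 2 and 2 with the slide row. Leaving out 1 mouse gave 0 to 16 higher and 0 to 5 lower. The list's median log2 difference stayed between 0.07 and 0.29. The labels do not say whether the replicate numbers pair the mice. Same-numbered mice had correlations of deviations of -0.24, 0.022 and 0.20, and differently numbered mice between -0.37 and 0.39. With 3 mice per group these values cannot decide whether mice were paired. With the replicate block, 6 genes were higher and 1 lower, and the list's median was 0.20. The median range over the DMSO mice was 0.45, and 0.89 (0.55 over all genes) with median scaling or the authors' table; leaving out 1 DMSO mouse gave 0.13 (0.20 over all genes, without DMSO mouse 1) to 0.41 (0.25, without DMSO mouse 2). Signs turned for 16 genes of the list, each at an adjusted p of 0.791 or more (limma). With median scaling or the authors' table, the log2 difference was -0.017 for Irf9, -0.025 for Oasl2, -0.021 for Gbp2, -0.021 for Psmb8, -0.039 for Psmb9 and -0.034 for Tap1. With the slide row it was -0.034 for Ifit3, -0.18 for Isg15 and 0.11 for Oas2, and with quantile normalisation 0.037 for Iigp1. Leaving out 1 mouse gave -0.091 to 0.38 for Irf7, -0.037 to 0.20 for Oasl2, -0.39 to 0.023 for Mx1, -0.17 to 0.034 for Mx2, -0.68 to 0.038 for Rsad2, -0.14 to 0.75 for Cxcl9, -0.94 to 0.016 for Cxcl10, -0.12 to 0.41 for Gbp2, -0.11 to 0.092 for Iigp1, -0.048 to 0.23 for Psmb9 and -0.14 to 0.29 for Tap1. The cause of these shifts was not tested. Signal over background limits Ifi44, Cxcl10 and the 3 genes that did not pass the filter.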
